A study of Brassica rapa subsp. pekinensis with 6 samples.

Results

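A total of 134 gene models were at 5 CPM or more in fertile flower buds of Chinese cabbage (Brassica rapa subsp. pekinensis) and at 10% of that level or less in sterile buds, among the models that lie outside the Bra set of annotated genes and carry identifiers of the form Novel02172. They were chosen by those values alone, as the mean of 3 sterile libraries against the mean of 3 fertile libraries, out of 2335 non-Bra models and 43354 models of any kind. CPM is the count of a model per 1e6 counts of its library. Since the members were selected for being low in sterile buds, their levels in both kinds of bud describe the selection and are given without a test.

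The sterile and the fertile libraries were both made from flower buds of the genic male sterile line AB01, whose sterility is inherited through multiple alleles, with 3 biological replicates of each. The seeds were sown in a greenhouse after vernalization, a cold treatment that lets the plants flower. The age of the plants, the stage of the buds and the number of plants behind each library are not stated in the sources used here. Libraries held 31893913, 32313032 and 33615379 counts for sterile buds and 27637426, 28255637 and 35564895 for fertile buds. The identifiers of the tables carry no gene names, so the labelled tissue was not checked against marker genes.

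Pollen forms inside the anthers, where meiosis yields microspores that are fed and coated by the surrounding tapetum before they mature into pollen grains. Maturing pollen and the tapetum are known to express many genes that other parts of the flower hardly use, and male sterile plants stop short of functional pollen. A whole bud also holds sepals, petals, the pistil and the stalk. RNA of a bud is therefore a mixture, and fewer cells of a type and less RNA per cell cannot be told apart in these libraries.

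The sources used here do not say how the non-Bra models were made, and 0 of the 2335 identifiers appear in the RefSeq gene table that came with the data. The role of the members in the plant is thus unknown here, and none is described by function. No name, position or sequence is given for them.

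Most members were either absent or nearly absent from sterile buds. In 68 of the 134 members (50.7%) no read was counted in any of the 3 sterile libraries, and in another 33 the sterile libraries together held 1 to 10 reads. The remaining 33 had over 10 reads. This last bound was chosen after the values were seen. With 97822324 counts in the sterile libraries together, absence of reads leaves room for a level of up to 0.0307 CPM (3 counts over the group; counting error only). If a member with no sterile read had kept its fertile level, the sterile libraries together would have held between 490 and 38199 of its reads, with a median of 2249.

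The 5 members with no sterile read that had the highest fertile CPM were Novel02172, Novel00911, Novel01751, Novel00165 and Novel02255. Novel02172, a model of 600 nucleotides (nt), had 0 reads in each sterile library, against 387, 338 and 447 CPM in fertile replicates 1, 2 and 3. Its level in sterile buds was at least 12733-fold lower, with the floor of 3 counts over the group as the sterile level. The fertile libraries were all far from 0, and replicate 3 was the highest of them.

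Novel00911, of 369 nt, likewise had 0 reads in the sterile libraries, against 274, 276 and 313 CPM in the fertile ones. For Novel01751, of 395 nt, the sterile libraries held 0 reads and the fertile libraries 217, 198 and 264 CPM. Novel00165, one of the shorter members at 304 nt, had 0 sterile reads and 198, 209 and 267 CPM in fertile buds. In all 3 models the groups were fully separated and fertile replicate 3 stood above the other fertile libraries.

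Novel02255, of 737 nt, had 0 reads in sterile buds, against 207, 208 and 256 CPM in fertile buds. Novel02281, of 345 nt, had 0 reads in sterile buds, against 171, 181 and 196 CPM in fertile buds. These models were at least 7293-fold and 5962-fold lower in sterile buds, in the order given. Over all 68 members with no sterile read, the bound ran from 163-fold to 12733-fold, and its size follows the fertile level, since the sterile level is the same floor for each.

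**Figure D1:**
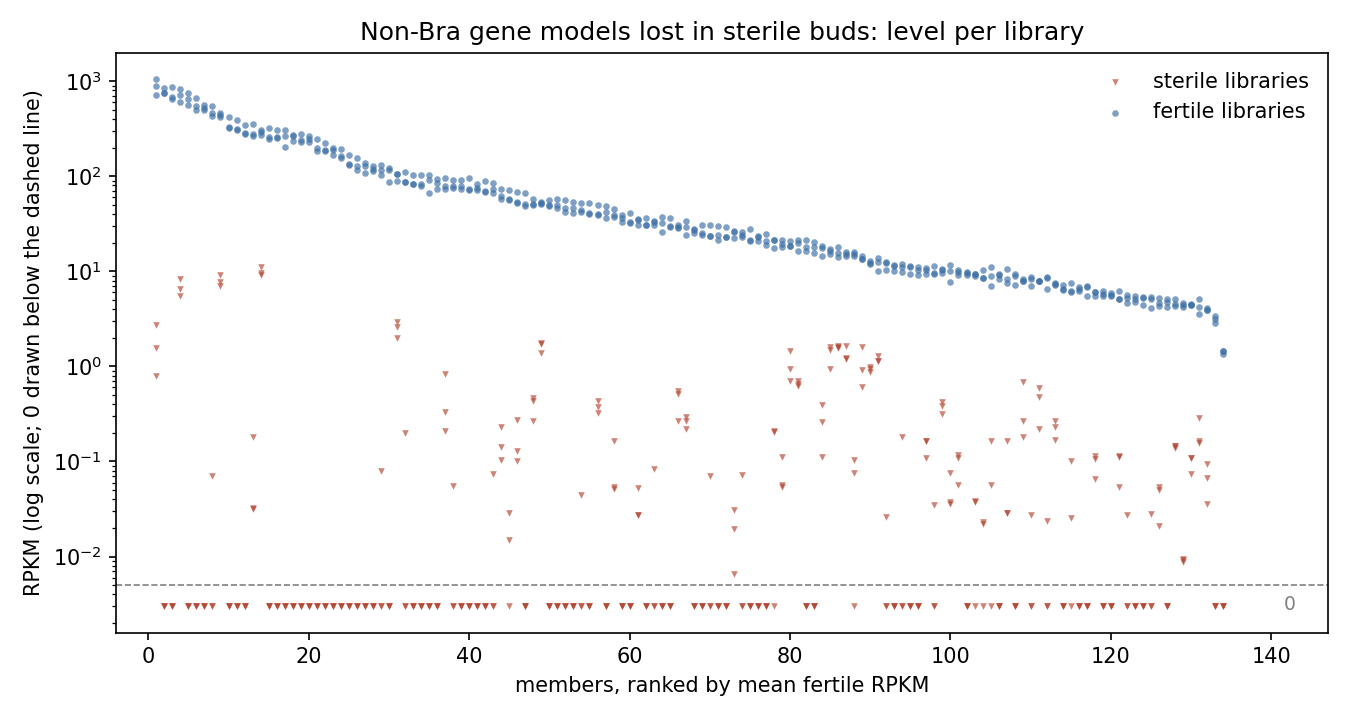
Level of the 134 members in every library, as deposited RPKM (reads per kilobase of model and per 1e6 counted reads) on a log scale, ranked by mean fertile RPKM. Triangles are the 3 sterile and circles the 3 fertile libraries, and values of 0 are drawn below the dashed line. On this log axis, which covers a wide range, the fertile values of a member lie close together. Sterile values of 0 occur along the whole range of fertile levels.

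Members that kept some sterile reads included the ones with the most fertile counts. Novel00278, of 1506 nt, had 11.7, 10.7 and 13.7 CPM in the sterile libraries, against 661, 625 and 693 CPM in the fertile ones, a 55.0-fold lower mean. Novel00602, of 746 nt, had 1.16, 0.588 and 2.05 CPM in sterile buds, against 667, 529 and 780 CPM in fertile buds, a 520-fold lower mean. The share left in sterile buds differed between them, at 1.82% of its own fertile level for Novel00278 and 0.192% for Novel00602.

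Novel02018, of 467 nt, had 3.04, 2.60 and 3.90 CPM in sterile buds, against 333, 283 and 386 CPM in fertile buds. For Novel00423, of 899 nt, the sterile libraries held 8.18, 8.63 and 10.1 CPM and the fertile libraries 264, 243 and 276 CPM, which is 3.43% of the fertile level. In both models the sterile libraries differed from each other by less than from any fertile library, and replicate 3 was the highest in either group.

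Novel01490, of 979 nt, belonged to the class between, with 1, 1 and 6 reads in the sterile libraries, against 258, 272 and 343 CPM in fertile buds. Novel02205, of 443 nt, had a single read, in sterile replicate 2, against 191, 204 and 243 CPM in fertile buds. From the pooled counts that read stands for 0.00475% of the fertile level, with an exact 95% counting interval of 0.00012% to 0.0265%. In all, 20 members had 1 to 3 sterile reads.

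Reads in sterile buds came from few members. Novel00278, Novel00423 and Novel02018 together averaged 24.1 CPM in sterile libraries, 53.8% of the sterile counts of all members, and the other 131 members summed to 20.8 CPM. Of the 66 members with any sterile read, 43 had reads in each of the 3 libraries, 7 in 2 and 16 in 1. No member with reads in a single library had more than 3 of them. Among the 43, sterile replicate 1 was highest in 17, replicate 2 in 7 and replicate 3 in 19, and over the 66 the sterile level had a median of 0.709% of the fertile level, from 0.00485% to 9.98%.

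Summed over the 134 members, the libraries held 43.8, 40.7 and 50.2 CPM in sterile buds, against 7658, 7198 and 8864 CPM in fertile buds. As a share of all counts this was 0.00449% ± 0.00048 in sterile buds and 0.791% ± 0.086 in fertile buds (SD, n = 3 each). The members made up 0.199% of the counts of all non-Bra models in sterile buds and 28.9% in fertile buds. The 492 other non-Bra models at 5 CPM or more in fertile buds, whose sum the choice of members also shapes, held 19543, 20713 and 20927 CPM in sterile buds, against 16918, 17105 and 17974 CPM in fertile buds. Raw CPM carries a shift between the groups: with library totals alone the median log2 fold change of all tested genes was 0.31, and with trimmed mean of M values (TMM) scaling -0.00036.

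The counts of members in fertile buds were spread unevenly. The 12 members with the highest fertile CPM held 49.99% of the fertile CPM of all 134, and the 30 highest held 75.4%. Per length, fertile levels ran from 1.41 to 883 RPKM, with a median of 27.8 RPKM. Novel00602 was the highest at 883 RPKM, followed by Novel00911 at 779 RPKM, Novel00165 at 739 RPKM and Novel02018 at 715 RPKM. Of the 69 non-Bra models at 100 RPKM or more in fertile buds, among those at 5 CPM or more, 31 were members, and 23 of these 31 had no sterile read. Of all 626 non-Bra models at 5 CPM or more, 21.4% were members. At a given CPM a shorter model has a higher RPKM. Short non-Bra models were also more often members, at 44.3% under 500 nt against 10.1% from 2000 nt.

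The ratio of sterile to fertile level left few non-Bra models between the members and those that kept most of their level. Of the 626 non-Bra models at 5 CPM or more in fertile buds, 134 (21.4%) had a ratio of at most 0.1, only 33 (5.27%) lay above 0.1 and up to 0.5, and 459 (73.3%) were above 0.5. Bra models at that level numbered 20883, of which 1372 (6.57%), 916 (4.39%) and 18595 (89.0%) fell in the same classes. Over all models at this level the rule picked out 7.00%. These shares rest on the contrast that chose the members and are descriptions.

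**Figure D2:**
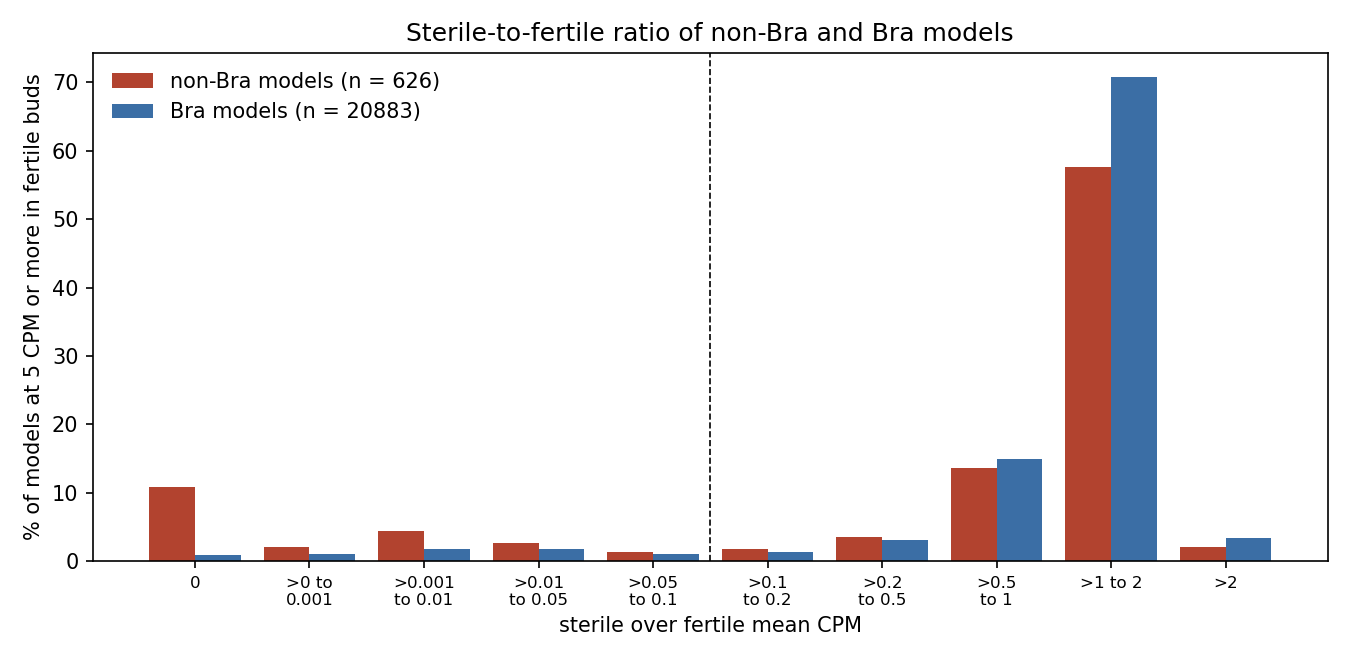
Share of models in classes of the ratio of mean sterile to mean fertile CPM, for 626 non-Bra and 20883 Bra models at 5 CPM or more in fertile buds. Classes left of the dashed line pass the rule. The class at 0 holds 10.9% of non-Bra and 0.934% of Bra models.

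Among the models that passed the rule, non-Bra models more often had no sterile read than Bra models, a description without a test, since models are not replicates. No sterile read was found for 50.7% of the 134 members and for 195 of the 1372 Bra models (14.2%). The share was above that of Bra models in each class of fertile level, at 42.9% against 13.2% from 5 to under 10 CPM, 40.5% against 12.04% from 10 to under 20 CPM, 56.0% against 17.6% from 20 to under 50 CPM and 64.9% against 13.9% from 50 CPM. Of the 25 members at 100 CPM or more, 17 had no sterile read. In edgeR's quasi-likelihood fit over all genes, 15.1% of 33150 genes tested were called at least 2-fold lower in sterile buds, and all 134 members were tested and called. Nothing follows from that count, since the rule asked for a 10-fold difference in the same libraries.

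The rule used the mean of the fertile libraries and not their order, although each library entered that mean. In 100 of the 134 members (74.6%) fertile replicate 3 was the highest of the 3 fertile libraries, and the median of replicate 3 over the mean of replicates 1 and 2 was 1.16. Replicate 3 was highest in 582 of the 1372 Bra models that passed the rule (42.4%, median 1.03) and in 185 of the 492 other non-Bra models at 5 CPM or more (37.6%, median 1.02). The values are raw CPM. With TMM scaling the rule picked 144 members, and the median over those was 1.15. They describe 1 library against 2 and allow no test of a difference between libraries.

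The excess in fertile replicate 3 differed with the number of sterile reads. It had a median of 1.20 in the 68 members with no sterile read, of 1.16 in the 33 with 1 to 10 and of 1.03 in the 33 with over 10. Replicate 3 was highest in 60, 26 and 14 of them, in that order. Bra models that passed the rule had medians of 1.07, 1.03 and 1.02 in the same classes.

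At 20 CPM or more, where the lowest fertile count of a member was 478 reads and counting error alone gives a coefficient of variation of at most 4.57%, replicate 3 was highest in 38 of 38 members with no sterile read. Their ratio of replicate 3 to the mean of replicates 1 and 2 lay between 1.08 and 1.33, with a median of 1.22. The 119 Bra models of this level with no sterile read had replicate 3 highest in 76 (63.9%), with a median of 1.08. Members of this level with over 10 sterile reads had replicate 3 highest in 11 of 14, with a median of 1.12. Among all members at this level it was highest in 58 of 62 and among other non-Bra models in 79 of 176.

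**Figure D3:**
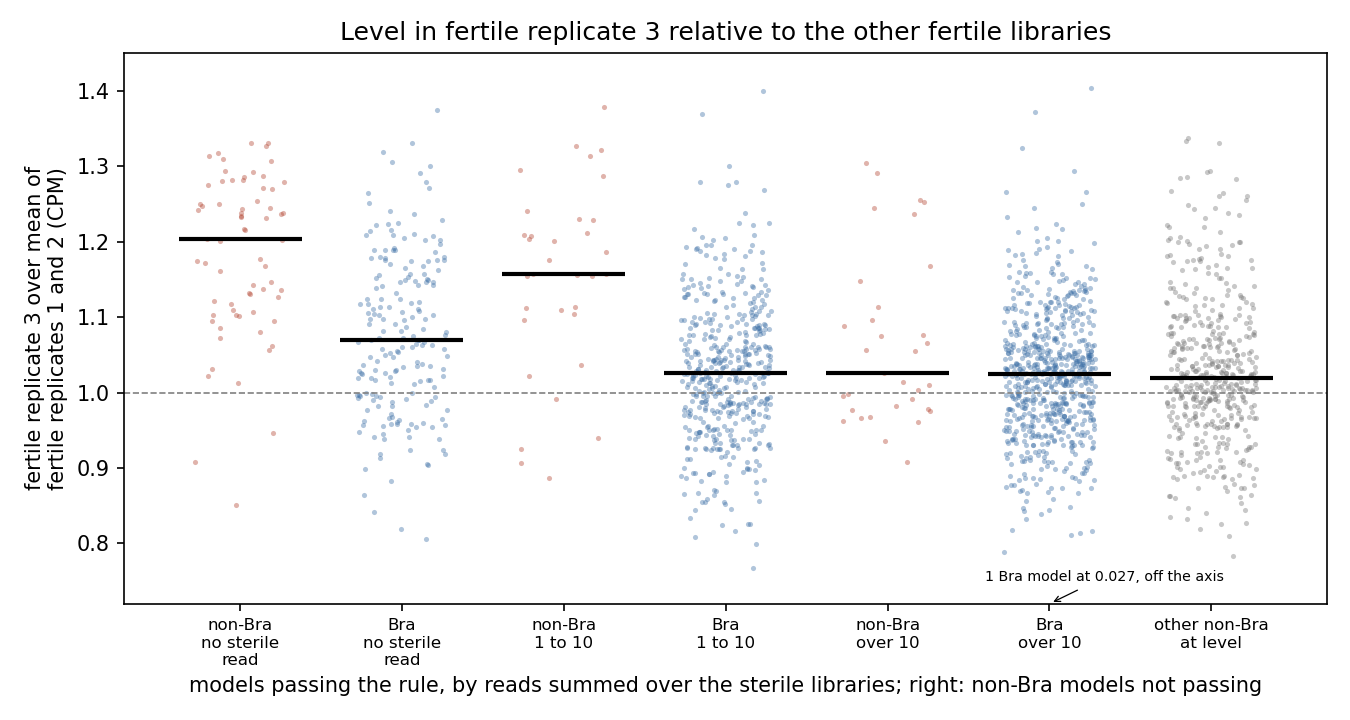
CPM in fertile replicate 3 over the mean of fertile replicates 1 and 2, 1 point per model, with the median as a bar. Models passing the rule are split by reads summed over the sterile libraries, and non-Bra models at 5 CPM or more that did not pass stand at the right. The medians of members are 1.20, 1.16 and 1.03, and those of Bra models 1.07, 1.03 and 1.02.

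The choice of members by a mean that includes fertile replicate 3 could favour models high in it. With fertile replicate 3 left out of the choice, 129 non-Bra models were picked, of which 95 were highest in replicate 3, and the median ratio over these 129 was 1.16. The number of models changed little without it, and the part of the choice in the excess was not tested. In sums, members with no sterile read held 3918, 3772 and 4667 CPM in fertile replicates 1, 2 and 3, and members with over 10 sterile reads held 2614, 2319 and 2861 CPM. Bra models that passed the rule summed to 167945, 166692 and 169767 CPM. Fertile replicate 3 was also the deepest fertile library, with 35564895 counts against 27637426 and 28255637 in replicates 1 and 2. What else differed between the fertile libraries is not stated in the labels. The part of depth or of any other difference in the levels of the members was not tested.

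By their medians, fertile libraries were further apart for the members than for other models, but not in every class of member. The median coefficient of variation over fertile libraries was 12.4% for the 62 members at 20 CPM or more, against 4.97% for 176 other non-Bra models and 5.47% for 767 Bra models that passed the rule at that level. Among models of this level with no sterile read, it was 12.8% for 38 members and 7.37% for 119 Bra models. At 5 CPM or more the median was 11.3% for all 134 members, but 6.38% for the 33 with over 10 sterile reads. The 14 of these 33 at 20 CPM or more had 12.5%. At 5 CPM or more it was 6.49% for the 492 other non-Bra models and 6.11% for the 1372 Bra models that passed. The widest spread was seen in Novel01239, with 3.91, 5.03 and 6.16 CPM in fertile buds and 4 reads in sterile buds. Novel01774, of 222 nt, had 0 sterile reads and 14.6, 20.1 and 22.9 CPM in fertile buds, and Novel00692, of 429 nt, 0 sterile reads and 112, 87.3 and 132 CPM. Novel01239 and Novel01774 were lowest in fertile replicate 1 and Novel00692 in replicate 2, while replicate 3 was highest in each.

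Members were short compared with other non-Bra models. Model length, recovered from the deposited counts and RPKM, had a median of 632.5 nt in members (quartiles 464 and 1102 nt) and of 1208 nt in the 492 other non-Bra models at 5 CPM or more (quartiles 780 and 1780 nt). Members with no sterile read were shorter still, with a median of 562 nt, against 827 nt for those with 1 to 10 sterile reads and 930 nt for those with over 10. Models under 500 nt were 39 of the 134 members (29.1%) and 49 of the 492 others (9.96%). Of member lengths 36.6% were multiples of 3, against 33.5% in the other non-Bra models. Bra lengths were all multiples of 3 and are coding lengths, so non-Bra and Bra lengths are not compared. Within Bra models that passed the rule, those with no sterile read were also the shortest, with a median of 666 nt. Those with 1 to 10 sterile reads had a median of 1096.5 nt and those with over 10 a median of 1159.5 nt.

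**Figure D4:**
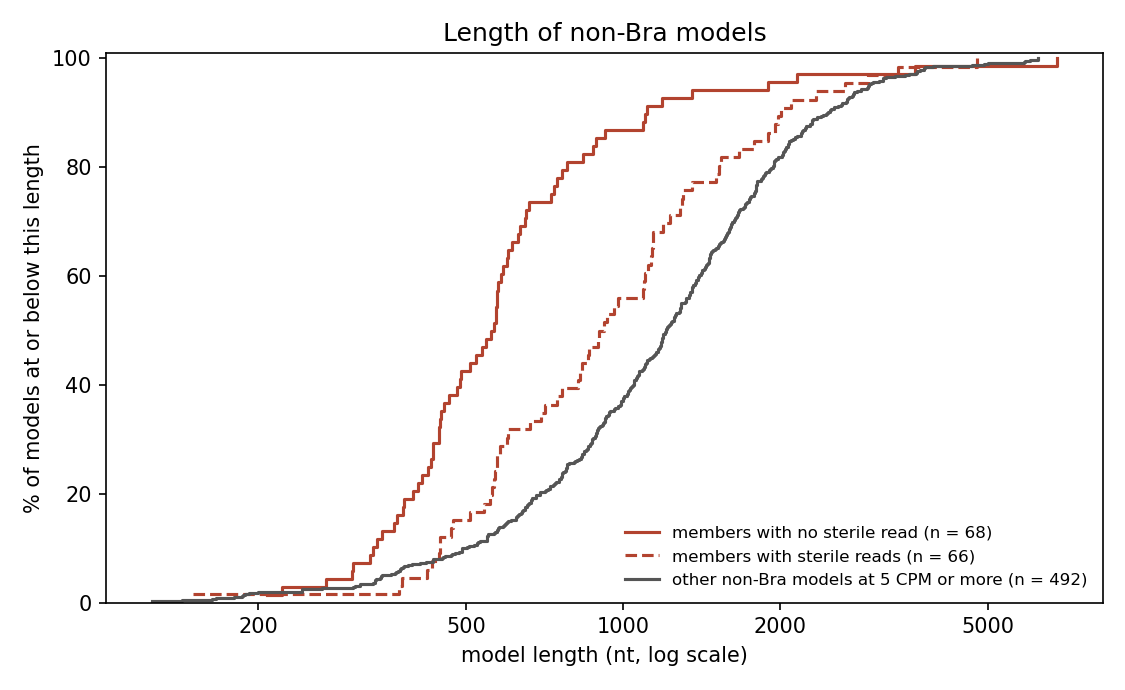
Cumulative share of non-Bra models at or below a given length, on a log axis, for members without and with sterile reads and for the other 492 non-Bra models at 5 CPM or more in fertile buds. The curve of members with no sterile read, with a median of 562 nt, lies left of the others over most of the range.

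Within non-Bra models the share that passed the rule was lower in longer models. It was 39 of 88 models (44.3%) under 500 nt, 57 of 192 (29.7%) from 500 to under 1000 nt, 28 of 247 (11.3%) from 1000 to under 2000 nt and 10 of 99 (10.1%) from 2000 nt. By fertile level it was 15.4% from 5 to under 10 CPM, 23.1% from 10 to under 20 CPM, 19.8% from 20 to under 50 CPM and 33.0% from 50 CPM. Bra models passed in 6.28%, 5.90%, 5.19% and 9.69% of the same classes of level. By class of their own coding length, from short to long, Bra models passed in 9.12%, 6.53%, 6.41% and 5.30%. A lower share in longer models was thus seen in both kinds of model, although their lengths are not alike.

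**Figure D5:**
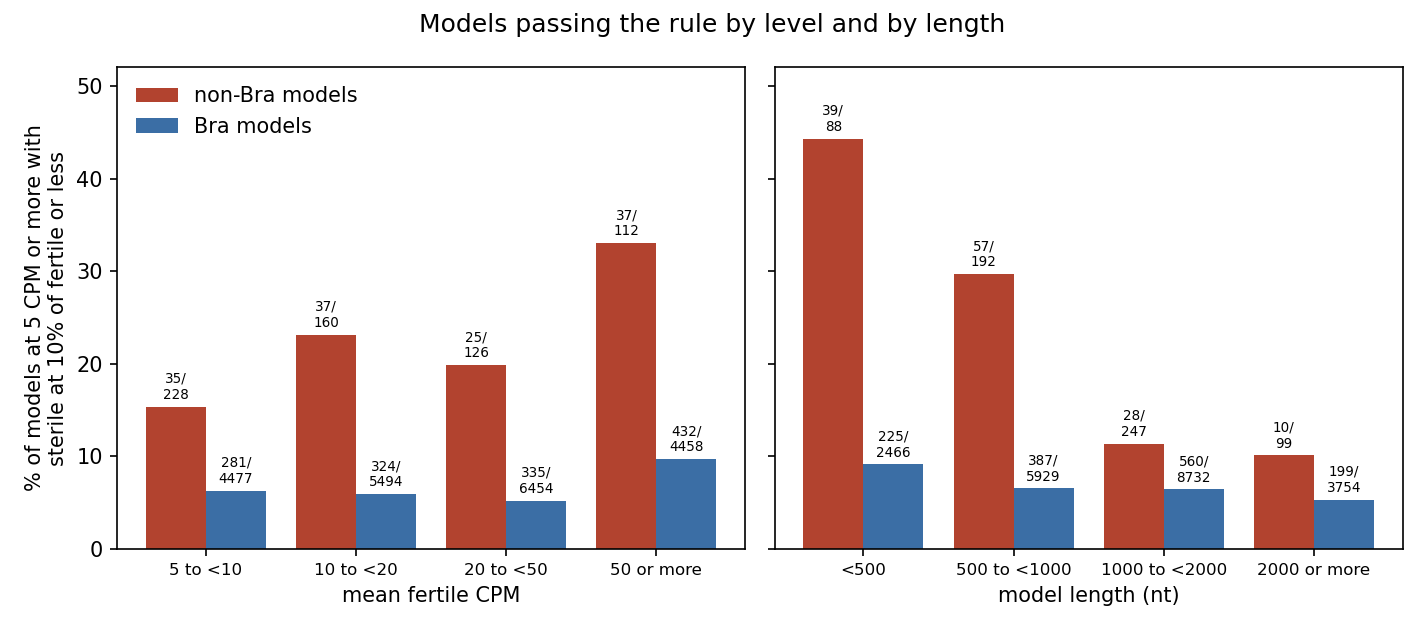
Share of models at 5 CPM or more in fertile buds that passed the rule, by class of mean fertile CPM at the left and of model length at the right, with passing and all models of each class above its bar. non-Bra models under 500 nt passed in 44.3%. Bra lengths are coding lengths, so the length classes of the 2 kinds of model are not alike.

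The longest members were far from the median. Novel00735, of 6781 nt, had 0 reads in sterile buds, against 9.73, 9.13 and 9.73 CPM in fertile buds, which at its length is 1.41 RPKM, the lowest fertile RPKM of all members. Novel01047, of 4766 nt, had 1, 3 and 5 sterile reads, against 123, 106 and 126 CPM in fertile buds. Novel00154, of 3617 nt, had 0 sterile reads and 12.2, 10.4 and 11.5 CPM in fertile buds. Novel00735 and Novel00154 did not share the excess in fertile replicate 3, with ratios to the mean of replicates 1 and 2 of 1.03 and 1.02.

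The shortest members were Novel02247, Novel00115 and Novel01774. Novel02247, of 150 nt, had 1 read in sterile replicate 3, against 13.0, 13.1 and 16.8 CPM in fertile buds. From the pooled counts that is 0.0705% of the fertile level, with an exact 95% counting interval of 0.00178% to 0.394%. Novel00115, of 208 nt, had 0 sterile reads and 48.4, 54.7 and 56.8 CPM in fertile buds. Per length these fertile levels were 95.3 RPKM for Novel02247 and 256 RPKM for Novel00115, above the median of members. Every member had to reach 5 CPM, which is a higher RPKM in a shorter model, so this partly follows from the choice.

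Some members carried neighbouring identifier numbers. The numbers of non-Bra models run from 1 to 2335, and 27 of the 134 members (20.1%) had a member at the number before or after their own, against 48 of the 492 other models at 5 CPM or more (9.76%). The sources used here do not say whether the numbers follow genome order. The 27 formed 12 runs, 9 of 2 members and 3 of 3.

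Of the 3 runs of 3 members, 1 kept sterile reads in each model. Novel00342, Novel00343 and Novel00344 kept 7.56%, 7.52% and 8.79% of their fertile level. In Novel00342 the sterile libraries held 0.408, 0.712 and 0.268 CPM, against 6.44, 5.95 and 5.96 CPM in fertile buds. Novel00344 had 1.41, 1.02 and 1.04 CPM in sterile buds, against 12.6, 13.8 and 13.1 CPM in fertile buds. Fertile replicate 3 was not the highest library in any of these 3 models.

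In the other 2 runs sterile reads were all but missing. Novel00733, Novel00734 and Novel00735 had 0 sterile reads. Novel00125 and Novel00126 had 0 sterile reads as well, and Novel00127 had 1, against 45.2, 42.6 and 52.1 CPM in fertile buds. Novel00733, of 405 nt, had 18.9, 17.2 and 22.6 CPM in fertile buds, and Novel00734, of 445 nt, 12.9, 13.2 and 16.1 CPM. Reads of overlapping or near-identical models could have been shared in the counting, which the tables do not show; no members had identical counts.

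Few models lay near the limit of the ratio, with 8 members above 0.05 and 11 non-Bra models above 0.1 and up to 0.2, while 35 members lay at 5 to under 10 CPM, near the limit of the level. Just inside the ratio, Novel00784 had 2.88, 2.88 and 2.80 CPM in sterile buds, against 32.3, 25.5 and 27.98 CPM in fertile buds, or 9.98% of the fertile level. Novel00562 stood at 9.77%, Novel00344 at 8.79% and Novel01065 at 8.23%. Just outside were Novel00892 at 10.6%, Novel00482 at 11.03% and Novel01492 at 11.1%. Just inside the level, Novel00103 and Novel00965 averaged 5.01 CPM in fertile buds and Novel01239 averaged 5.03 CPM, the first pair with 0 sterile reads. Just under the level, the highest models with a ratio of at most 0.1 were Novel00530, Novel00326 and Novel01785. They averaged 4.96, 4.74 and 4.56 CPM in fertile buds.

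Models chosen without the sterile and fertile libraries of a given replicate number were also low in the sterile library left out. The libraries left out belong to the same groups as those used for the choice. The values below therefore describe replicates and are no separate support for the loss. With both libraries of replicate number 1 left out, the rule picked 132 non-Bra models, and 131 of them had a ratio of at most 0.1 in the libraries left out. For number 2 this was 132 of 137 and for number 3 128 of 129. The highest ratio seen in the libraries left out was 0.133. All 134 members had every fertile library above every sterile library, and the lowest fertile value was at least 7.72 times the highest sterile value. The rule makes such a separation nearly certain, so both values describe the choice. The same was not counted over other models.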

How the data were processed

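Raw read counts per model and RPKM (reads per kilobase and per 1e6 counted reads) were used as deposited by the authors, in 12 columns, per the file headers. The submitters' processing notes list TopHat2 2.0.9 and Bowtie2 2.0.6 without saying what each did. Read counter, strandedness, annotation and genome build: not given in the sources used here. Reads of overlapping or antisense models therefore cannot be told apart. Columns were matched to samples by title and grouped by the genotype label.

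CPM was computed from the deposited counts and column totals. Model length was taken as CPM over RPKM, times 1000, and was the same in all libraries of a non-Bra model to within 2.1e-07 of its value. The level, ratio and members follow the rule given above; the members and the lists of named models were chosen with earlier results of these data known. Named were the 12 members of highest fertile CPM, the 4 of highest fertile RPKM, the 5 of highest CPM with no sterile read, the 4 of largest ratio, the 3 of lowest level, of largest fertile coefficient of variation, and of greatest and least length, the longest runs of numbers (3 runs tied), and the 3 models just outside either limit. The background came from edgeR 4.0.16 in R 4.3.3 (filterByExpr, TMM, glmQLFit and glmQLFTest, replicate number not in the model; calls at a Benjamini-Hochberg adjusted p under 0.05 and a 2-fold change or more), which was checked on simulated data. DESeq2 1.42.0 was an alternative. No p is given for members.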

Additional observations from a re-analysis of the deposited data

How the results depend on the processing

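The number of members was 206 with a fertile level of 2 CPM or more, in place of 134 at 5 CPM, and stayed between 99 and 145 under the other alternatives of level, ratio and scaling (144 with TMM and with DESeq2 factors). With each library left out in turn there were 129 to 136 members, 64 to 77 of them with no sterile read, 0.740% to 0.827% of fertile and 0.00403% to 0.00475% of sterile counts, 20.9% to 21.6% of non-Bra and 6.52% to 6.62% of Bra models passing, a median length of 630 to 632.5 nt and 25 to 27 members with a neighbouring member. At a ratio of at most 0.01, members held 0.655% of fertile and 0.000683% of sterile counts, 17.4% of non-Bra and 3.86% of Bra models passed, 18 members had a read in every sterile library, and the median excess of fertile replicate 3 in Bra models was 1.036. The sterile share was 0.00543% with TMM and 0.00543% with DESeq2 factors, 0.00359% at a ratio of at most 0.05, 0.00972% at 0.2 and 0.00376% when the highest sterile was set against the lowest fertile library. Bra models passed in 6.97% with TMM, 6.97% with DESeq2 factors, 5.57% at 0.05, 7.93% at 0.2 and 6.18% with those extreme libraries. At 10 CPM or more 24.9% of non-Bra models passed, and members with a neighbouring member numbered 46 at 2 CPM and 15 at 10 CPM. These follow from the wider or narrower definition. The median excess of fertile replicate 3 in members stayed between 1.14 and 1.20 throughout.

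Models called at least 2-fold lower numbered 4996, and 4364 to 5931 under the alternatives, with 4995 in the fit with a replicate block. Deviations from the group means of libraries with the same number correlated at 0.021, -0.035 and 0.097, and replicate numbers were not treated as pairs. Of 280 recomputed values of 33 named members, 87 moved by more than the spread between libraries. Their sign is fixed by the rule. Leaving out sterile replicates 1, 2 and 3 moved 17, 19 and 19 values, and leaving out any fertile library moved 0. TMM scaling moved 13 and DESeq2 factors 13 of the 33 named members. The replicate block moved 6, but was computed only for named members with sterile reads. With TMM and DESeq2 factors the floor of members with no sterile read was left unscaled, so their values shifted less. In members with no sterile read, leaving out a sterile library raises the assumed floor of 3 counts over the group, which alone shifts the value. Alternatives for the order of fertile libraries, sterile reads, identifier numbers and libraries left out by replicate number were chosen after seeing the data. Depth limits the members with few sterile reads: 85 rather than 68 had fewer than 3.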

Other observations

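Non-Bra models below the level of the rule were looked at in the same way. Of 713 non-Bra models at 1 to under 5 CPM in fertile buds, 166 (23.3%) had a sterile level of at most 10% of the fertile one, and 47 of these had no sterile read. Among Bra models at 1 to under 5 CPM, 459 of 6484 (7.08%) were as low, and 88 had no sterile read. In the 166 non-Bra models the median of fertile replicate 3 over the mean of replicates 1 and 2 was 1.11, and replicate 3 was highest in 85 of them. The 47 with no sterile read had a median of 1.19, and replicate 3 was highest in 26 of them. At these levels a model generally has fewer reads per library than a member, so the order of the fertile libraries is less certain than in the members. Of all 2335 non-Bra models 75 had no count in any library.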
